A study of Mus musculus with 6 samples.

Results

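Wnt signalling was examined in cultured mouse endothelial cells through 10 of its genes: the Frizzled receptors Fzd4, Fzd6 and Fzd8, the co-receptors Lrp5 and Lrp6, beta-catenin (Ctnnb1), the transcription factors Tcf7l1, Tcf7l2 and Lef1, and the feedback inhibitor Axin2. They were selected by gene name from the 54532 genes of the deposited count table, and each name matched 1 row. The RBPMS cells received a lentivirus that overexpresses RBPMS, an RNA-binding protein, for 72 hours (n = 3), and the Control cells received a lentivirus with an empty vector for the same 72 hours (n = 3). All 6 libraries thus come from endothelial cells, which line blood vessels, exposed to a lentivirus, and the study places them in the setting of heart failure during aging. The labels name neither the vascular bed nor the animals, and they do not say whether the replicates were separate cultures, so the p-values reflect only how much these libraries vary, and that may be technical.

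In canonical Wnt signalling a secreted Wnt protein, or norrin in the case of Fzd4, brings a Frizzled receptor together with LRP5 or LRP6 at the cell surface. This stops the axin complex from marking beta-catenin for destruction, and beta-catenin then enters the nucleus and binds TCF/LEF proteins on its target genes. In endothelium the pathway is known for vessel growth in the retina through FZD4 and LRP5 and for building the blood-brain barrier, and beta-catenin also sits at cell junctions on VE-cadherin. Signalling acts on beta-catenin mainly through the stability of the protein, which these data do not measure.

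Of the 10 genes, 8 had enough counts to test and Axin2 and Lef1 had almost none, in RBPMS and Control cells alike. Promoter sequence was compared between the most abundant genes and these 2. RefSeq windows on GRCm38.p6, running from 250 bases before to 50 bases after an annotated start site, were found for 6 of the 10 genes, 11 windows in all. The 4 shown here, 5′ to 3′ on the plus strand, are the first windows of Ctnnb1 (chr9:120933150-120933449) and Fzd4 (chr7:89404116-89404415), which were abundant, and of Axin2 (chr11:108920099-108920398) and Lef1 (chr3:131110047-131110346), which were nearly silent. Capitals mark each GC box, the letters GGGCGG on either strand, with matches that share a base counted separately.
Ctnnb1: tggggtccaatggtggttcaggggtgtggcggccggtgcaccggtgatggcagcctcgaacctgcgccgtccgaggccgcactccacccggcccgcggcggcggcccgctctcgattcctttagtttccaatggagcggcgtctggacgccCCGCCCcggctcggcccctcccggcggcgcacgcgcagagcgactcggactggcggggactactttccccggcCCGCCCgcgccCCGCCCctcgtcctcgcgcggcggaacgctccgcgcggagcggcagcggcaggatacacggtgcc
Fzd4: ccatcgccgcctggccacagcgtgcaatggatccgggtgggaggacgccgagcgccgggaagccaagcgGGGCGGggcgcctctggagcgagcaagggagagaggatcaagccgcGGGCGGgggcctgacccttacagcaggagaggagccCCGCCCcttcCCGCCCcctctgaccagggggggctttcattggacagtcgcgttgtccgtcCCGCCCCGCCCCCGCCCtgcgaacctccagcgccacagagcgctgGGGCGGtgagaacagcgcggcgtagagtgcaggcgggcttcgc
Axin2: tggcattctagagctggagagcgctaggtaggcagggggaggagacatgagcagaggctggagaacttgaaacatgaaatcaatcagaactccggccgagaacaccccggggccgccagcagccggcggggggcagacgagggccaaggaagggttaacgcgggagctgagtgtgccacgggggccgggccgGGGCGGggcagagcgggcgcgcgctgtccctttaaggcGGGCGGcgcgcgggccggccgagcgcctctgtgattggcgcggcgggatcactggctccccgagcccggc
Lef1: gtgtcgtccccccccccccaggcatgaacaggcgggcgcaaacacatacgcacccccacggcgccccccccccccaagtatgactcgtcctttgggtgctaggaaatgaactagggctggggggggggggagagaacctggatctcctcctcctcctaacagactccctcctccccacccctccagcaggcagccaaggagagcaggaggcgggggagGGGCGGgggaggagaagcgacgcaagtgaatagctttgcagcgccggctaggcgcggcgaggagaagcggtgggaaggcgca
The Ctnnb1 window had 75.3% G and C with 3 GC boxes, and the Fzd4 window had 72.7% with 8. The Axin2 window had 70% with 2 GC boxes, and the Lef1 window had 67.3% with 1. All 4 windows exceeded the median of 52.7% G and C over the 32851 RefSeq windows, of which 35.7% held a GC box. High GC content was therefore shared by the first windows of genes with and without transcripts. None of the 4 held a TCF/LEF core, searched on both strands as CTTTG followed by AA, AT, TA or TT, letters that overlap no GC box. Such a core was found in 2 of the 11 windows, the fourth of Lef1 and the second of Tcf7l2, against 16.9% of all windows. These 2 windows had 43.7% and 42% G and C and the third of Lef1 had 51.7%, below the median of all windows.

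Several facts of the libraries bear on the values that follow. Rbpms itself, the overexpressed gene, stood at 131, 148 and 133 CPM in RBPMS replicates 1 to 3 and at 57.1, 56.8 and 55.2 CPM in Control replicates 1 to 3, where CPM is the count scaled to library size, after TMM, a correction for library composition. Rbpms was higher by 1.27 ± 0.059 on the log2 scale (SE; edgeR adjusted p = 3.6e-11) without control replicate 3 and by 1.28 ± 0.10 over all 6 libraries (adjusted p = 0.0606). Reads of the vector, if it carries the mouse sequence, cannot be told apart from the cells' own. Total counts ran from 15779567 to 23076124. Control replicate 3 stood apart: its log2 CPM correlated with the other libraries at 0.959 to 0.965 across genes, against 0.993 to 0.997 among the other 5, and its long transcripts were low. Fold changes of the 10 genes are therefore given without and with control replicate 3. The 10 endothelial markers, Pecam1 and Cdh5 among them, were all present, at a summed 17471 to 18412 CPM in RBPMS and 15757 to 20329.7 CPM in Control libraries. Fibroblast markers summed to 5.48 to 6.03 CPM in RBPMS and 5.02 to 7.79 CPM in Control libraries, and pericyte and smooth muscle markers to 1.22 to 1.64 CPM in RBPMS and 0.925 to 1.73 CPM in Control libraries. Tcf21 and Rgs5 had no count, and 2 markers of each of these lists were tested. Leukocyte markers, nearly all of them reads of the macrophage and lysosome gene Cd68, summed to 53.9 to 58.5 CPM in RBPMS and 41.9 to 46.8 CPM in Control libraries. Epithelial and mesothelial markers, mostly Msln, summed to 15.95 to 20.04 CPM in RBPMS and 20.2 to 24.6 CPM in Control libraries. Adgre1, Cd3e, Epcam, Krt18 and Cdh1 had no count in any library, and Ptprc had at most 3 in each. Of 3 lymphatic markers Lyve1 was abundant, at 378 ± 14.1 CPM in RBPMS and 424 ± 60.2 CPM in Control cells (SD, n = 3 each). The other lymphatic markers were near 0: Pdpn had no count, and Prox1 had at most 3 in each library. The part of the Cd68, Msln and Lyve1 levels in the results was not tested. In RNA from a whole culture, fewer cells of a type and less RNA per cell cannot be told apart.

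In CPM per kb of gene length, the 8 tested genes kept the same order of levels in every library. The length is the one deposited with the counts. How it relates to the transcripts expressed in these cells is not known, so comparisons between genes depend on it. On this scale beta-catenin averaged 280.2 over the 6 libraries, Fzd4 91.9, Lrp5 66.2, Fzd6 21.2, Lrp6 13.0, Tcf7l1 11.2, Tcf7l2 5.97 and Fzd8 5.04. Each of these 8 genes was above the next in 6 of 6 libraries, although the ranges of Fzd4 and Lrp5 over the libraries overlapped, as did those of Lrp6 and Tcf7l1. Ctnnb1 was higher per kb than 99.2% of all tested genes, Fzd4 than 96.4% and Lrp5 than 94.8%, whereas Fzd8 was higher than 45.7%. Axin2 and Lef1 averaged 0.0069 and 0.0012 CPM per kb.

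**Figure D1:**
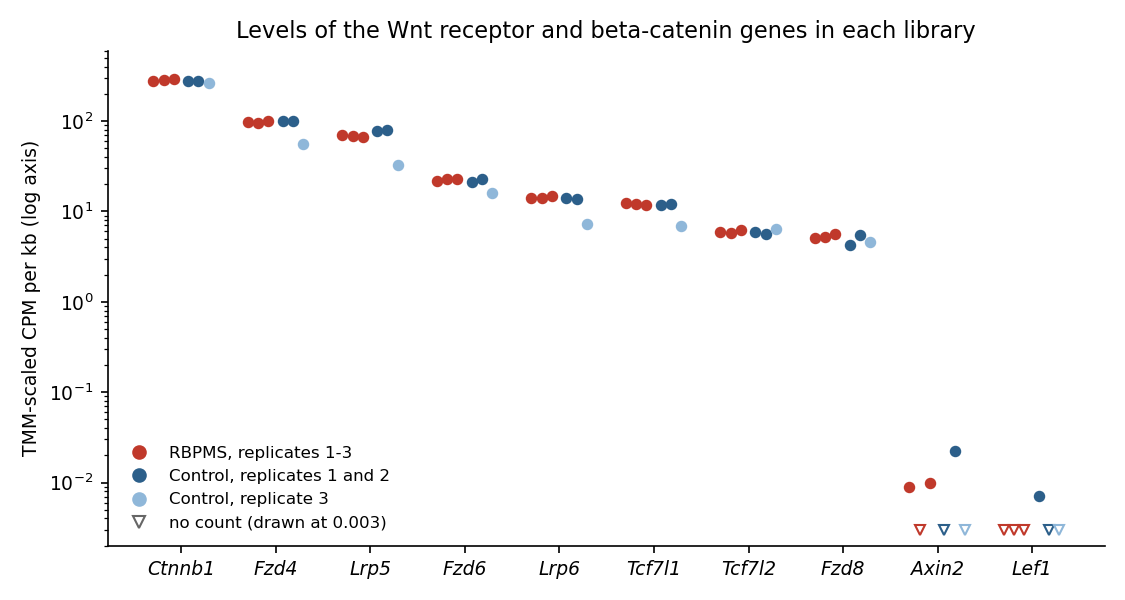
Level of each gene in each library, in TMM-scaled CPM per kb on a log axis, with RBPMS libraries in red, Control replicates 1 and 2 in dark blue and Control replicate 3 in light blue; triangles mark libraries with no count. Ctnnb1 is highest at a mean of 280.2, and Fzd8 is the lowest of the tested genes at 5.04. Control replicate 3 lies below the other controls for Fzd4, Lrp5, Fzd6, Lrp6 and Tcf7l1 and, by a smaller margin, for Ctnnb1.

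Among the 8 tested genes, Lrp5 was the 1 called, lower in RBPMS cells, and only where control replicate 3 was left out. With edgeR's quasi-likelihood test over the 5 libraries without control replicate 3 (3 RBPMS, 2 Control) it was the 1 gene of 8 with an adjusted p under 0.05, where 7.24% of all 14123 tested genes were called and 3.43% were called lower. A count of 1 in 8 is near that background. Over all 6 libraries edgeR called 0 of the 8, where 0% of 13898 tested genes were called and 7.56% had an unadjusted p under 0.05, and none of the 8 had such a p. DESeq2 without control replicate 3 also called Lrp5 and no other of the 8, with 7.35% called of the 10563 genes to which it gave an adjusted p. DESeq2 over all 6 libraries called 0 of the 8, with 0.403% of all genes called, and limma-voom called 0 of the 8, with 0% called. The median log2 fold change of the 8 genes was 0.044 without control replicate 3, where that of all tested genes was -0.0025. Over all 6 libraries the median of the 8 genes was 0.16 and that of all tested genes was -0.0083.

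Fzd4, the receptor for norrin and for several Wnts, had 656, 647 and 681 CPM in RBPMS cells and 673, 678 and 371 CPM in Control cells. The RBPMS values spanned those of control replicates 1 and 2, and control replicate 3 was far below all the others. The log2 fold change was -0.028 without control replicate 3 (95% interval -0.12 to 0.067; edgeR adjusted p = 0.798) and 0.21 over all 6 libraries (interval -0.35 to 0.76; adjusted p = 0.677). Fzd6, a Frizzled receptor best known for planar cell polarity and hair patterning, had 105, 111 and 109 CPM in RBPMS cells and 102, 109 and 77.9 CPM in Control cells. Its groups overlapped, and leaving out control replicate 3 gave a log2 fold change of 0.036 (interval -0.071 to 0.14; adjusted p = 0.762) and 0.17 over all 6 libraries (adjusted p = 0.615). Fzd8, a Wnt receptor with no intron in its coding sequence, had 17.2, 17.3 and 18.7 CPM in RBPMS cells and 14.4, 18.2 and 15.3 CPM in Control cells. The Fzd8 values overlapped between the groups, and its interval was the widest of the 8 without control replicate 3, at -0.10 to 0.34 around a log2 fold change of 0.12 (adjusted p = 0.579), while all 6 libraries gave 0.15 (adjusted p = 0.614).

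The make-up of the Frizzled transcripts was dominated by Fzd4. Of the summed CPM per kb of the 10 Frizzled genes, Fzd4 made up 59.9% ± 0.913 in RBPMS and 55.9% ± 6.51 in Control libraries (SD, n = 3 each). Control replicate 3 held 48.5%, and the other 5 libraries held 58.9% to 60.7%. Fzd6 made up 13.7% ± 0.380 in RBPMS and 13.4% ± 0.744 in Control libraries (SD, n = 3 each). Fzd8 made up 3.23% ± 0.103 in RBPMS and 3.26% ± 0.712 in Control libraries (SD, n = 3 each). Fzd3 and Fzd10 had no count in any library.

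Lrp5, the single-pass co-receptor that with Fzd4 carries the norrin signal, had 688, 660.5 and 656 CPM in RBPMS cells and 762, 783 and 320 CPM in Control cells. All 3 RBPMS libraries were below control replicates 1 and 2 and above control replicate 3, which had less than any other library. Without control replicate 3 the log2 fold change was -0.21 ± 0.045 (SE; interval -0.30 to -0.11; edgeR adjusted p = 0.00631), a change of -13.4% with an interval of -18.9% to -7.56%. Over all 6 libraries it was 0.10 ± 0.32 (SE; adjusted p = 0.878), in the opposite direction, so the call and its sign rest on leaving out 1 control library. Without control replicate 2 as well, which leaves 1 control, the log2 fold change was -0.19 and the adjusted p was 0.0557. The counts behind these levels were 14078, 14204 and 11968 in RBPMS libraries and 12125, 12695 and 7259 in Control libraries. In the same 5 libraries the endothelial markers Kdr, at a log2 fold change of -0.21, and Vwf, at -0.45, also fell, while Erg at 0.21 and Emcn at 0.17 rose (edgeR adjusted p = 1.7e-05 to 0.047). There Lyve1, the 1 lymphatic marker with enough counts to test, fell at -0.27 (edgeR adjusted p = 0.00199) and Cd68 rose at 0.34 (edgeR adjusted p = 0.00545). The part of these markers in the Lrp5 difference was not tested.

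Lrp6, the paralogous co-receptor, had 192, 192 and 202 CPM in RBPMS cells and 193, 186 and 98.5 CPM in Control cells. Leaving out control replicate 3, the fold change on the log2 scale was 0.047 (interval -0.051 to 0.14; adjusted p = 0.634), and over all 6 libraries 0.30 (adjusted p = 0.610). The ratio of Lrp5 to Lrp6 per kb was 5.03, 4.83 and 4.56 in RBPMS cells and 5.55, 5.92 and 4.56 in Control cells. The ratios of the RBPMS cells were thus below those of control replicates 1 and 2, and the lowest of them was equal to that of control replicate 3 at this rounding. The difference between the fold changes of the co-receptors was not tested.

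Ctnnb1 had 1450.4, 1471 and 1534 CPM in RBPMS cells and 1450.3, 1441 and 1382 CPM in Control cells. Its groups did not overlap, by a margin of the last digit, which was also so for 24.7% of all tested genes over the 6 libraries. Without control replicate 3, Ctnnb1 and Lrp5 were the 2 of 8 genes whose groups did not overlap, against 37.4% of all tested genes. The log2 fold change of Ctnnb1 was 0.040 without control replicate 3 (interval -0.057 to 0.14; adjusted p = 0.697) and 0.060 over all 6 libraries (interval -0.21 to 0.33; adjusted p = 0.801).

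**Figure D2:**
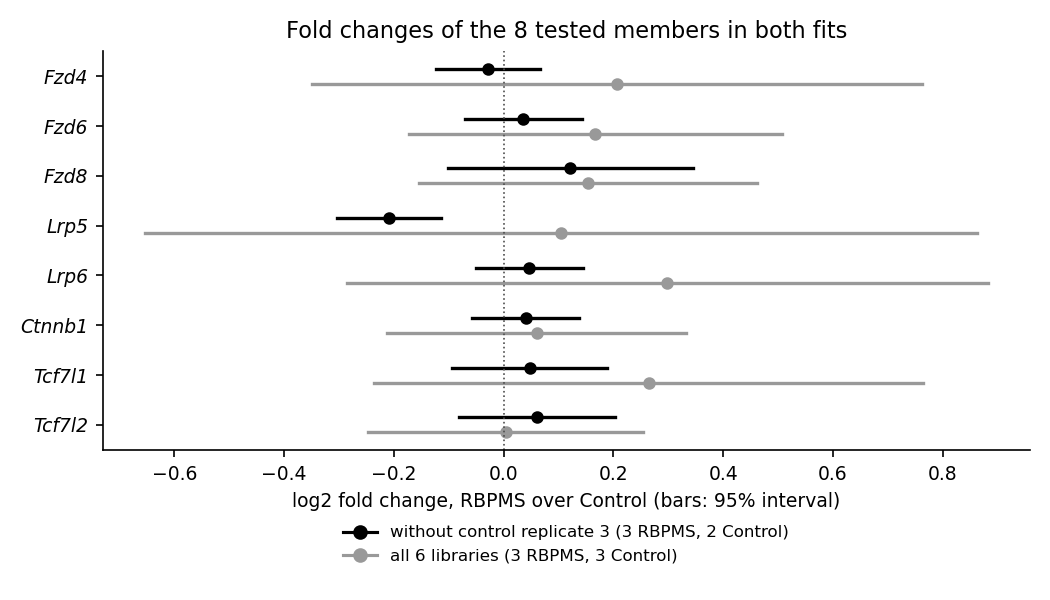
Log2 fold change of RBPMS over Control for the 8 tested genes with 95% intervals, in black without control replicate 3 (3 RBPMS and 2 Control libraries) and in grey over all 6 libraries. Lrp5 in black, at -0.21, is the interval that does not reach 0, and the grey Lrp5 point lies on the other side at 0.10.

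The TCF/LEF factors, which take beta-catenin to DNA, were represented by Tcf7l1 and Tcf7l2. Tcf7l1, known mainly as a repressor of Wnt targets, had 49.2, 47.8 and 46.6 CPM in RBPMS cells and 45.8, 47.0 and 27.0 CPM in Control cells. The RBPMS libraries lay close to control replicates 1 and 2, and the log2 fold change was 0.048 without control replicate 3 (interval -0.093 to 0.19; adjusted p = 0.760) and 0.26 over all 6 libraries (adjusted p = 0.606). Tcf7l2, an activator or repressor by context, had 51.2, 50.5 and 55.1 CPM in RBPMS cells and 51.4, 48.9 and 56.2 CPM in Control cells. Its groups overlapped throughout, with a log2 fold change of 0.061 without control replicate 3 (interval -0.081 to 0.20; adjusted p = 0.680) and 0.0034 over all 6 libraries (adjusted p = 0.987). Before division by length, Tcf7l2 averaged 52.2 CPM over all libraries and Tcf7l1 43.9 CPM, so the larger share of Tcf7l1 per kb rests on the deposited lengths. Tcf7l1 is the shorter gene, and per kb it made up 66.4% ± 1.5 of the TCF/LEF transcripts in RBPMS and 61.4% ± 8.83 in Control libraries (SD, n = 3 each), with 51.2% in control replicate 3. Tcf7l2 made up 32.6% ± 1.53 in RBPMS and 37.4% ± 9.0 in Control libraries (SD, n = 3 each). Tcf7, not among the 10 genes, made up 1.03% in RBPMS and 1.18% in Control libraries.

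Lef1 and Axin2, both classic direct targets of beta-catenin, were at or near 0. Lef1 had 0, 0 and 0 counts in RBPMS libraries and 1, 0 and 0 counts in Control libraries. Axin2, a scaffold that returns beta-catenin to the destruction complex, had 1, 0 and 1 counts in RBPMS libraries and 0, 2 and 0 counts in Control libraries. A library with no count allows up to 3 counts, which is 0.132 to 0.189 CPM here, for counting error only. The filter on low counts left out both genes. With no filter edgeR tested all 10 genes and called neither of these, over all 6 libraries or without control replicate 3. Over all 6 libraries Axin2 had 4 counts and Lef1 had 1, too few for such a test to detect a difference between the groups.

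Control replicate 3 moved these genes by very different amounts. Relative to control replicates 1 and 2 on the log2 scale it was at -1.27 for Lrp5, -0.94 for Lrp6, -0.86 for Fzd4, -0.77 for Tcf7l1, -0.43 for Fzd6, -0.090 for Fzd8, -0.064 for Ctnnb1 and 0.16 for Tcf7l2. Over all tested genes split by length into 10 groups of equal size, the median of the same difference ran from 0.54 in the shortest group to -0.64 in the longest. Lrp5 and Lrp6 lie in the longest group, Tcf7l2 in the next one with a median of -0.43, and Tcf7l1, at 3924 bases, in one with a median of 0.061. Lrp5, Lrp6, Fzd4, Fzd6, Tcf7l1 and Fzd8 were below the median of their length group, and Ctnnb1 and Tcf7l2 were above it. Control replicate 3 was the lowest of all 6 libraries for 6 of the 8 tested genes and for 39.7% of all tested genes. Each of these 6 genes, Fzd4, Fzd6, Lrp5, Lrp6, Ctnnb1 and Tcf7l1, had a lower fold change without that library than over all 6. That follows by arithmetic from leaving out the lowest control. What set control replicate 3 apart was not tested.

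**Figure D3:**
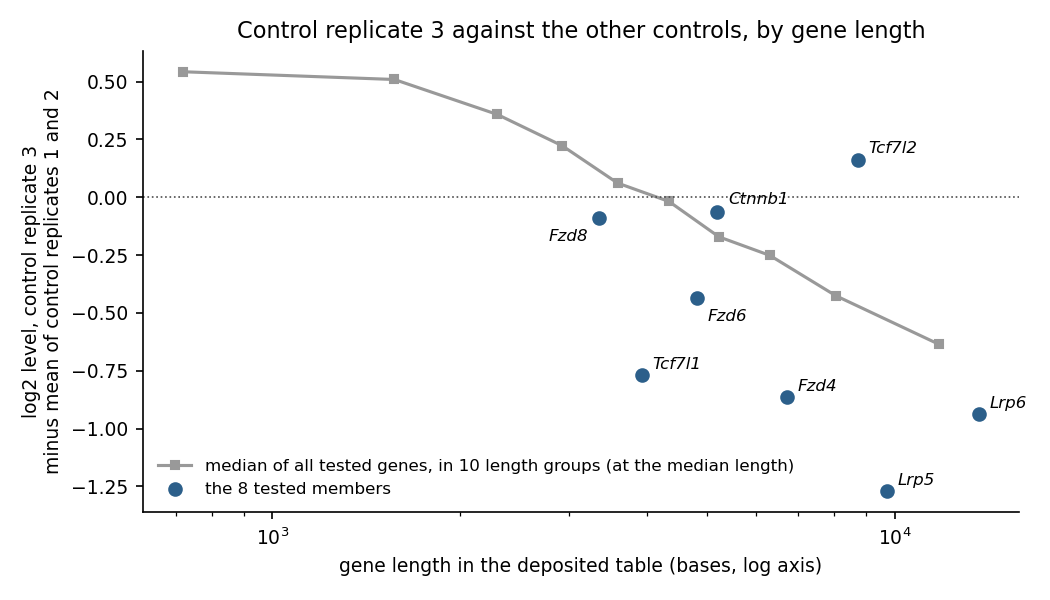
Level in control replicate 3 minus the mean of control replicates 1 and 2 (log2) against gene length in bases (log axis), for the 8 tested genes as blue points and as the median of all tested genes in 10 groups of equal size by length in grey. The grey line runs from 0.54 to -0.64; Lrp5 at -1.27, Fzd4 at -0.86 and Tcf7l1 at -0.77 lie below it, and Tcf7l2 at 0.16 lies above it.

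The rest of the pathway was surveyed with 10 further lists of 126 genes, of which 78 had enough counts to test and 27 had no count in any library. Without control replicate 3, 2 of the 78 rose and 4 fell, 7.69% of those tested, where 7.24% of all genes were called (3.81% higher, 3.43% lower). The median log2 fold change of the 78 was 0.027, where that of all tested genes was -0.0025. Over all 6 libraries edgeR called 0 of the 78, as it called 0 of all genes. The medians of the 10 lists ran from -0.23 for the inhibitors to 0.12 for the R-spondin genes without control replicate 3, and from -0.21 for the target genes to 0.25 for the R-spondin genes over all 6 libraries. The R-spondin median is that of only 2 tested genes. The target list mixes genes known to be raised and lowered by beta-catenin, so its median gives no direction of signalling. Of 22 ligand and secretion genes, 8 were tested, 0 were called and 7 had no count, among them Ndp, which encodes norrin, and Wnt7a, Wnt3a and Wnt1. The most abundant of this list were Wls, the carrier that brings Wnts to the surface, and Wnt5a, a ligand mainly of beta-catenin-independent signalling. Wls averaged 180.4 ± 7.09 CPM in RBPMS and 201 ± 13.0 CPM in Control cells (SD, n = 3 each). Wnt5a averaged 41.3 ± 1.31 CPM in RBPMS and 39.9 ± 13.0 CPM in Control cells (SD, n = 3 each). Control replicate 3 had 24.9 CPM of Wnt5a, and control replicates 1 and 2 had 47.1 and 47.8 CPM. The log2 fold change of Wnt5a was -0.20 without control replicate 3 (edgeR adjusted p = 0.0915) and 0.052 over all 6 libraries (adjusted p = 0.920). That of Wls was -0.11 (adjusted p = 0.205) and -0.16 (adjusted p = 0.590).

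Of the 7 other Frizzled genes, 5 were tested and 1, Fzd9, fell without control replicate 3. Fzd9 had 33.6, 35.0 and 31.2 CPM in RBPMS cells and 40.9, 41.9 and 46.6 CPM in Control cells, all 3 RBPMS libraries below all 3 controls. Its log2 fold change was -0.31 ± 0.076 (SE; edgeR adjusted p = 0.0138) without control replicate 3 and -0.37 ± 0.11 (adjusted p = 0.587) over all 6 libraries. The call was lost without control replicate 1 (adjusted p = 0.0635) or 2 (adjusted p = 0.107) as well. Fzd5, a receptor for Wnt5a among others, averaged 48.2 ± 1.31 CPM in RBPMS and 48.8 ± 11.7 CPM in Control cells (SD, n = 3 each). Control replicate 3 had 35.3 CPM of Fzd5, and control replicates 1 and 2 had 54.8 and 56.2 CPM. The log2 fold change of Fzd5 was -0.20 without control replicate 3 (edgeR adjusted p = 0.0682) and -0.014 over all 6 libraries (adjusted p = 0.974). Of 9 receptor partners in endothelium, 6 were tested and 0 were called. Adgra2, which with Reck makes Wnt7 signalling specific in brain vessels, averaged 215 ± 11.4 CPM in RBPMS and 188 ± 77.3 CPM in Control cells (SD, n = 3 each). Control replicate 3 had 99.1 CPM of Adgra2, and control replicates 1 and 2 had 226 and 239 CPM. The log2 fold change of Adgra2 was -0.11 without control replicate 3 (edgeR adjusted p = 0.210) and 0.19 over all 6 libraries (adjusted p = 0.758). Ryk, a Wnt co-receptor, averaged 58.2 ± 2.60 CPM in RBPMS and 57.2 ± 10.9 CPM in Control cells (SD, n = 3 each). For Ryk the log2 fold change was 0.20 without control replicate 3 (adjusted p = 0.0782) and 0.025 over all 6 libraries (adjusted p = 0.939). Of 9 R-spondin and receptor turnover genes 2 were tested, Lgr4 and Znrf3, and 0 were called, at log2 fold changes of 0.093 for Lgr4, an R-spondin receptor, and 0.15 for Znrf3, a ligase that removes Frizzleds.

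Of 14 secreted or surface inhibitors, 10 had no count in any library, among them Dkk1, Sfrp1 and Wif1, and 4 were tested. Apcdd1, a membrane-bound Wnt inhibitor known from retinal and brain vessels, was the 1 called. It had 84.0, 76.4 and 72.8 CPM in RBPMS cells and 87.5, 98.2 and 59.4 CPM in Control cells, so that control replicate 3 was again lowest. Its log2 fold change was -0.25 ± 0.064 (SE; edgeR adjusted p = 0.0177) without control replicate 3 and -0.070 ± 0.19 (adjusted p = 0.857) over all 6 libraries, and the call was lost without control replicate 2 as well (adjusted p = 0.275) or RBPMS replicate 3 as well (adjusted p = 0.0613). Dkk2, a secreted LRP6 ligand, averaged 47.0 ± 3.90 CPM in RBPMS and 45.0 ± 6.77 CPM in Control cells (SD, n = 3 each). The log2 fold change of Dkk2 was -0.052 without control replicate 3 (edgeR adjusted p = 0.765) and 0.065 over all 6 libraries (adjusted p = 0.827).

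In the cytoplasmic relay, all 17 listed genes of the destruction complex and its regulators, a list that does not hold Axin2, were tested, and 1 rose. Their levels ran down to that of Apc2, at 0.987 ± 0.171 CPM in RBPMS and 0.704 ± 0.401 CPM in Control cells (SD, n = 3 each). The 1 that rose was Tnks, tankyrase, which marks axin for degradation, at 125, 129 and 125 CPM in RBPMS cells and 116, 109 and 53.3 CPM in Control cells. All 3 RBPMS libraries were above all 3 controls, and the log2 fold change was 0.17 ± 0.049 (SE; edgeR adjusted p = 0.0348) without control replicate 3 and 0.45 ± 0.27 (adjusted p = 0.587) over all 6 libraries. This call held in 1 of the 5 fits that left out a further library, with adjusted p up to 0.301. Its paralog Tnks2 averaged 431 ± 13.2 CPM in RBPMS and 386 ± 47.1 CPM in Control cells (SD, n = 3 each; log2 fold change 0.064 without control replicate 3). Of 15 nuclear partners of beta-catenin 14 were tested and 0 were called. Sox17, an endothelial factor that binds beta-catenin, was at 251 ± 21.4 CPM in RBPMS and 281 ± 39.9 CPM in Control cells (SD, n = 3 each). The co-repressor relative Tle5, named Aes in the table, was at 194 ± 7.17 CPM in RBPMS and 204 ± 43.5 CPM in Control cells (SD, n = 3 each). Without control replicate 3 the log2 fold change was -0.042 for Sox17 (edgeR adjusted p = 0.753) and 0.12 for Tle5 (adjusted p = 0.147). Over all 6 libraries it was -0.16 for Sox17 (adjusted p = 0.615) and -0.070 for Tle5 (adjusted p = 0.834).

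Of 15 target genes of beta-catenin 6 were tested, 2 fell and 6 had no count, among them Nkd1, Sp5 and Cldn3. The 2 that fell without control replicate 3 are known to answer to beta-catenin in opposite ways in brain endothelium: Slc2a1, the glucose transporter GLUT1, is raised by it, and Plvap, a component of fenestrae and caveolae, is lowered by it. Slc2a1 had 171, 162 and 163 CPM in RBPMS cells and 195, 203 and 219.7 CPM in Control cells. Its groups did not overlap, and the log2 fold change was -0.26 ± 0.047 (SE; edgeR adjusted p = 0.00124) without control replicate 3 and -0.31 ± 0.10 (adjusted p = 0.587) over all 6 libraries. Plvap had 508, 441 and 477 CPM in RBPMS cells and 552, 585 and 699 CPM in Control cells. Its groups did not overlap either, and the log2 fold change was -0.26 ± 0.054 (SE; adjusted p = 0.00505) without control replicate 3 and -0.36 ± 0.14 (adjusted p = 0.587) over all 6 libraries. The Slc2a1 call held in each of the 5 fits without a further library, and that of Plvap was lost without control replicate 2 as well (adjusted p = 0.0733). The other tested targets, Ccnd1, Myc, Cldn5 and Abcb1a, were not called.

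The largest change in these lists was in 1 gene listed here under the planar polarity branch, the beta-catenin-independent arm that runs from Dishevelled to the cytoskeleton. Of the 12 genes of this list 10 were tested and 1 rose, Daam2, a formin that binds Dishevelled and assembles actin. Whether Daam2 acts in that arm or in beta-catenin signalling in these cells was not tested. Daam2 had 25.3, 26.9 and 24.0 CPM in RBPMS cells and 5.28, 7.22 and 2.95 CPM in Control cells, from 518, 578 and 438 counts in RBPMS libraries and 84, 117 and 67 counts in Control libraries. All 3 RBPMS libraries were several times above every control. The log2 fold change was 2.02 ± 0.12 (SE; edgeR adjusted p = 2.9e-09) without control replicate 3 and 2.32 ± 0.30 (adjusted p = 0.353) over all 6 libraries, and the call held in each of the 5 fits without a further library. Its paralog Daam1 was at a log2 fold change of -0.077 without control replicate 3 and 0.11 over all 6 libraries. The small GTPase Rac1 averaged 742 ± 6.32 CPM in RBPMS and 786 ± 123 CPM in Control cells (SD, n = 3 each). The log2 fold change of Rac1 was 0.055 without control replicate 3 (edgeR adjusted p = 0.541) and -0.083 over all 6 libraries (adjusted p = 0.777).

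**Figure D4:**
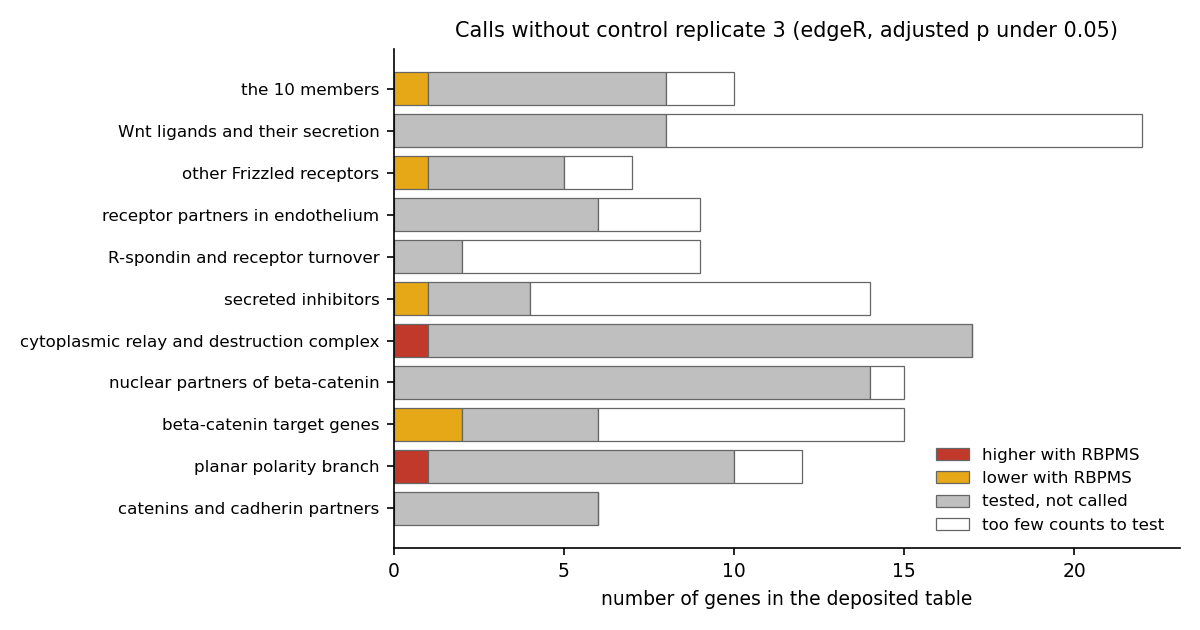
Number of genes in each list, split into those called higher with RBPMS (red), called lower (orange), tested and not called (grey) and with too few counts to test (white), by edgeR without control replicate 3. The 10 genes and 10 further lists hold 7 calls in all, and the ligand, R-spondin, inhibitor and target lists are mostly white.

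Where the genes lie may bear on some of these counts. Overlaps are given here for whole gene spans, introns included. The table's coordinates match GENCODE M21 for 8 of the 10 genes, all but Fzd8 and Tcf7l2. With the table's coordinates, Fzd4, Fzd8, Lrp5 and Lrp6 overlap no other gene of GENCODE M21. Ctnnb1 (chr9:120929216-120960507, plus strand) shares bases with the protein-coding gene Ulk4 and an antisense transcript on the other strand. On its own strand Ctnnb1 shares 62 bases with the microRNA gene Mir7090. Axin2, Lef1, Tcf7l1, Tcf7l2 and Fzd6 each share bases with at least 1 non-coding gene. The sources used here do not say how the authors used strand. Whether reads of these partners entered the counts was not tested. Lrp5 (chr19:3584828-3686564, minus strand) and Fzd4 (chr7:89404355-89413134, plus strand) are free of such overlaps.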

How the data were processed

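RNA was sequenced from RBPMS and Control endothelial cells (3 libraries each); per the labels' protocols ribosomal RNA was removed before library construction. The authors deposited whole-number counts per gene with gene length, coordinates and names. Per the submitters' processing notes FastQC, Salmon and mm10 were used; the sources used here give no versions, no step to whole counts and no strand setting.

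Counts were tested in R 4.3.3 with edgeR 4.0.16 quasi-likelihood (filterByExpr, TMM, group as the only term, Benjamini-Hochberg over all tested genes, threshold 0.05), over all 6 libraries and without control replicate 3. Levels are CPM on TMM-scaled library sizes of all 6 libraries. A pseudocount of 0.5 CPM was used only for the log2 difference of control replicate 3. The standard error is the log2 fold change over the root of F. Alternatives used limma 3.58.1, DESeq2 1.42.0, other scalings and filters, a loess offset (span 0.3) on length, a replicate block and leaving out each library. The test was checked on simulated counts. Replicate pairs of a group without control replicate 3 differed by more than sampling noise (chi-square per degree of freedom 3.19 to 4.32).

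The members, gene lists and tests were chosen with earlier results of these data known. Named were all 10 members, Rbpms, and per list up to 4 called genes of smallest p, filled to 2 by the most abundant tested genes; marker genes (Cd68, Msln and Lyve1 among them), Daam1, Apc2, Tcf7, Jup, Cdh2, Abcb1a, Ccnd1, Myc, Cldn5 and untested genes were named after their values were seen. Promoter windows are from RefSeq.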

Additional observations from a re-analysis of the deposited data

How the results depend on the processing

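Depth limits Axin2 and Lef1, at 0 to 2 counts in each library, and Fzd8, the lowest of the tested genes, had the widest interval without control replicate 3. Over all 6 libraries edgeR called 0 genes, against 5 with no filter on low counts, 56 with DESeq2, 1087 with limma-voom quality weights and 3 with a length offset; leaving out 1 library gave 0 to 1022 calls, the highest without control replicate 3. The 10 genes held 0 calls under each of these settings, except 0 to 1 when 1 library was left out (1, Lrp5, without control replicate 3). Without control replicate 3 there were 1022 calls, and 415 to 1017 with a further library left out; where 1 control remained, it is assumed to vary like the RBPMS libraries. Of the 10 genes, 0 to 1 were then called, 0 without control replicate 2. Lrp5 kept its call and sign under the other 9 settings without control replicate 3.

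Signs turned over all 6 libraries for Lrp5 (-0.19 with quality weights, adjusted p = 0.0514; -0.0016 with the length offset; -0.21 to 0.31 with 1 library left out), Fzd4 (-0.031 with quality weights; -0.028 to 0.34 with 1 library left out) and Tcf7l2 (-0.0044 with no filter; -0.17 with the length offset; -0.041 to 0.061 with 1 library left out). Without control replicate 3 they turned for Fzd6 (-0.018 to 0.090) and Fzd8 (-0.039 to 0.30) with a further library left out. The causes were not tested. Fold changes of the 8 tested genes otherwise kept their direction.

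Replicate numbers are shared by the groups, and whether they pair the libraries is not known. Deviations of same-numbered libraries correlated at 0.045, -0.032 and 0.0046, and those of differently numbered ones at -0.088 to 0.086. Control replicate 3 stood far from the other controls and weighs on these deviations, so the values cannot decide whether libraries are paired. With the replicate block 0 genes were called over all 6 libraries and 917 without control replicate 3, where Lrp5 was at -0.20 (adjusted p = 0.0327).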

Other observations

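Of the catenin and cadherin genes listed beside beta-catenin, Cdh5 and Ctnna1 were the most abundant. The 6 tested genes summed to 3794 to 3833 CPM in RBPMS and 2423 to 3578 CPM in Control libraries, and edgeR called 0 of the 6 in either fit. Among the 6, Cdh2 was at 19.96 ± 0.727 CPM in RBPMS and 19.1 ± 4.58 CPM in Control cells (SD, n = 3 each). The log2 fold change of Cdh2 was -0.12 without control replicate 3 (edgeR adjusted p = 0.498) and 0.066 over all 6 libraries (adjusted p = 0.865). Cdh5, VE-cadherin, which anchors beta-catenin at endothelial junctions, had 2643, 2628 and 2678 CPM in RBPMS cells and 2386, 2450 and 1361 CPM in Control cells. Its groups did not overlap, with a log2 fold change of 0.13 ± 0.046 without control replicate 3 (SE; edgeR adjusted p = 0.0897) and 0.36 ± 0.23 over all 6 libraries (adjusted p = 0.590). Ctnna1, alpha-catenin, the link from beta-catenin to actin, had 669, 659 and 666 CPM in RBPMS cells and 644, 648 and 584 CPM in Control cells, at a log2 fold change of 0.043 ± 0.044 without control replicate 3 (adjusted p = 0.652). The level of Ctnnb1 over that of plakoglobin (Jup), its close relative, both in CPM per kb, was 7.02, 7.25 and 7.79 in RBPMS cells and 8.21, 7.49 and 9.29 in Control cells. These ratios overlapped between the groups.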
